A study of Rattus norvegicus with 15 samples.

Results

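Glutamate receptor subunits and the scaffold proteins of the excitatory postsynapse were followed across the striatum of hemiparkinsonian rats. The set held 36 genes listed by family: AMPA, kainate, NMDA and delta receptor subunits, metabotropic receptors, the scaffolds of the Dlg, Shank, Homer and Grip families, and both neuronal CaMKII subunits. A gene was read from the array row whose only annotated symbol was that gene. This gave 30 of the 36, each with 1 row, out of 18166 genes with a row of their own among 36685 transcripts. Gria1, Grid1, Grm4, Grm7, Camk2a and Gria2 (whose row was shared with a microRNA) were not analysed here. The striatum of male Sprague-Dawley rats was measured on 15 arrays, 1 per rat and 3 per group. LID + PD98059 rats had a unilateral 6-OHDA lesion of the nigrostriatal pathway, daily L-DOPA for 3 weeks, and the MEK inhibitor PD98059 infused through an implanted cannula into the lateral ventricle for 12 days from day 10. LID + Vehicle rats had the same lesion and L-DOPA with vehicle infused through such a cannula instead, and LID rats had the lesion and L-DOPA with no infusion. PD rats had the lesion and no L-DOPA, and Normal rats had sham surgery. All values are log2 signals after RMA, the background correction and between-array scaling used by the authors. A probe set's signal does not give an amount of RNA that can be set against another gene's, so each gene is compared with itself across groups.

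Striatal projection neurons receive glutamate from cortex and thalamus, and their spines carry the receptors described here. AMPA receptors carry the fast current, NMDA receptors admit calcium when the membrane is depolarised, kainate receptors act on both sides of the synapse, and metabotropic receptors signal through G proteins. Dlg, Shank, Homer and Grip proteins hold these receptors in the postsynaptic density, and remodelling of corticostriatal synapses is a well known feature of L-DOPA-induced dyskinesia (LID).

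Array medians lay between 5.56 and 5.65. LID + Vehicle replicate 1 stood apart from the rest. Its median correlation with the other arrays was 0.908, against 0.929 to 0.973 for the others, and it held the lowest value of all 15 arrays for 17 of the 30 genes. The 10 measured of 11 listed striatal projection neuron markers all lay above the dim level, as did 5 of 6 measured cortical excitatory neuron markers. Striatal marker signal was thus present, and the check says nothing of other tissue in the dissection. The dim level, 5.85, is the 95th percentile of 69 olfactory receptor transcripts, which striatum is not expected to express. On average over the arrays, 25 of the 30 genes lay above it, and Grik1, Grin2d, Grin3b, Grm2 and Grm6 did not. In bulk tissue, fewer cells of a type and less RNA per cell cannot be told apart.

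Chronic L-DOPA in lesioned striatum was first read from LID against PD, where the LID rats had been chosen for complete dyskinesia. No gene of the set passed (limma, Benjamini-Hochberg adjusted p under 0.05 over all transcripts with at least 1.2-fold). Over the whole array only 2 transcripts did, both higher (0.00545%). At the unadjusted threshold with the same fold, 3 of 30 genes were lower in LID than in PD and 0 were higher. These were Gria3, Grik1 and Grik3. Of all transcripts 4.69% were lower and 3.48% higher in this way, and of the 10721 genes above the dim level 3.84% were lower. Without LID replicate 1, LID replicate 3 or PD replicate 1, 1 gene of the set was left past this threshold. The groups did not overlap, with LID lower, for 6 genes (Gria3, Grik1, Grik2, Grik3, Dlg2 and Shank2). The same held for 8.97% of transcripts and 10.6% of genes above the dim level. In all, 25 of 30 genes had a log2 fold change below 0, as did 55.4% of transcripts, with a median of -0.12 for the set and -0.03 for all transcripts.

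Grik3, a kainate receptor subunit of low agonist affinity, had the smallest p of the set in this comparison. Its signal was 7.54, 7.11 and 7.64 in the LID + PD98059 arrays, 7.45, 7.36 and 7.71 in LID + Vehicle, 7.39, 7.39 and 7.70 in LID, 8.05, 8.13 and 8.07 in PD, and 7.90, 7.88 and 8.15 in Normal. Every one of the 9 arrays from L-DOPA-treated rats lay below every one of the 6 arrays from untreated rats, and the groups within each side overlapped. LID against PD gave a log2 fold change of -0.59 (SE 0.15, limma p = 0.00159, adjusted p = 0.351), and the exact permutation p was 0.1, the smallest that 3 against 3 arrays can give. Without any one LID or PD array, the unadjusted call held.

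**Figure D1:**
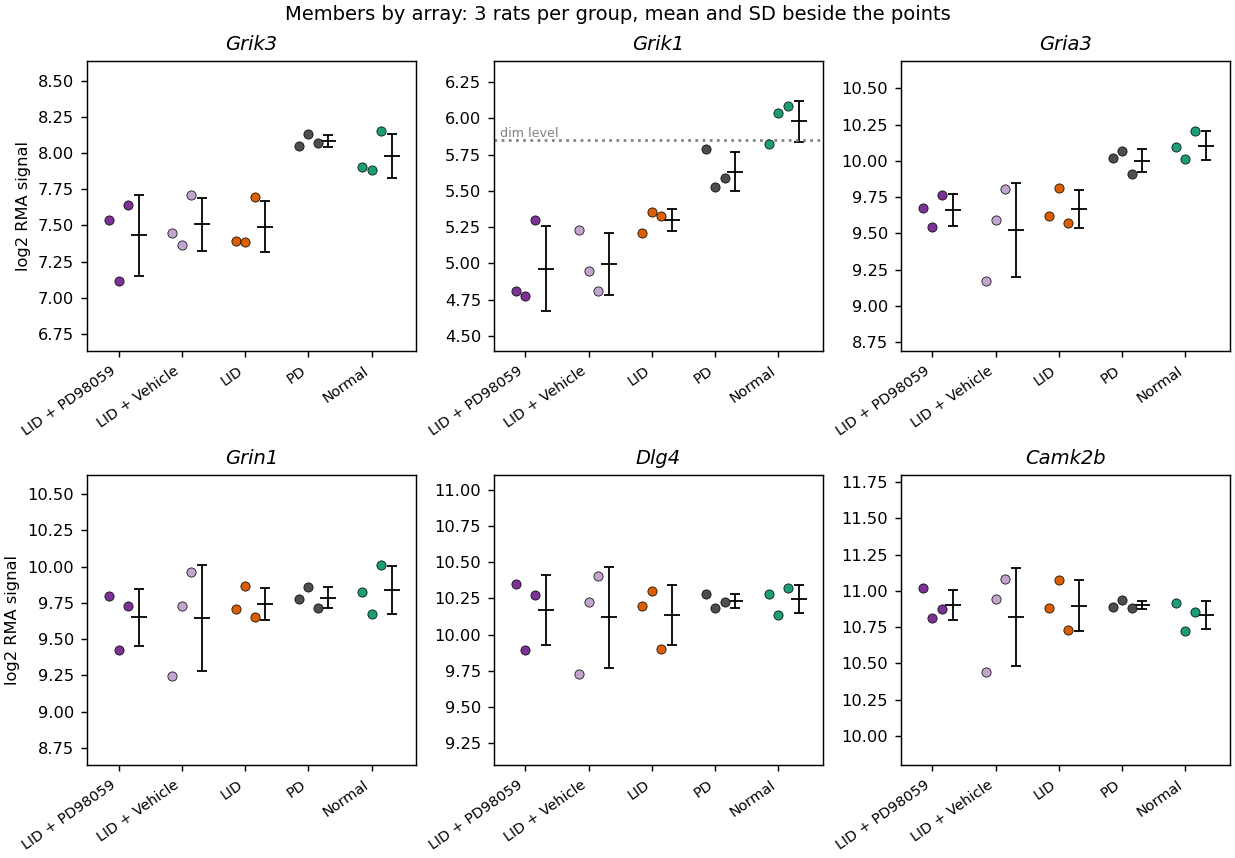
Log2 RMA signal (y axis) of 6 genes in the 5 groups (x axis), each point 1 rat and each bar the group mean with its SD (n = 3). Grik3, Grik1 and Gria3 lie lower in all 9 L-DOPA-treated arrays than in the 6 PD and Normal arrays, with most Grik1 points under the dotted dim level, while the groups overlap for Grin1, Dlg4 and Camk2b.

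The promoter of Grik3 is shown because this gene kept its call under every alternative in the comparison of all L-DOPA-treated with all untreated arrays, given below. RefSeq places the gene on chromosome 5 of GRCr8, plus strand, and the stretch printed is the 250 bases before its annotated start, chr5:143052192-143052441, with GC boxes (GGGCGG, searched on both strands) in capitals.
Grik3: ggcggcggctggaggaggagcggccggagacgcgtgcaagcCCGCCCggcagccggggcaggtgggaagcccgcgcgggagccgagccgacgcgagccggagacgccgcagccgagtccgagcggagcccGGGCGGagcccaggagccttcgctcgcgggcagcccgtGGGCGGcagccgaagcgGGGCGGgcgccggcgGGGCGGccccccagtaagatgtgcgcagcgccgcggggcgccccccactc
The window held 5 GC boxes and was 81.6% G or C, against a median of 52.0% over 27457 promoters of the same length. At least 1 GC box stood in 32.4% of those promoters and in 3 of the 20 measured genes of the set with an entry (Grik3, Grik5 and Camk2b). The CRE TGACGTCA, present in 1.70% of all promoters, and the AP-1 element TGANTCA, present in 6.36%, were in none of the 20. The EGR element GCGNGGGCG, present in 4.53%, was in 2, Gria4 and Camk2b, and its letters can overlap a GC box. These matches describe letters in a window and not bound sites. The window listed for Grik1 held none of the 4 elements, lies inside the span of the gene and is not printed; Gria3 has no entry.

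Gria3, an AMPA receptor subunit, read 9.67, 9.54 and 9.76 in LID + PD98059, 9.17, 9.60 and 9.81 in LID + Vehicle, 9.62, 9.81 and 9.57 in LID, 10.02, 10.07 and 9.91 in PD, and 10.10, 10.01 and 10.21 in Normal. Again no L-DOPA-treated array reached any untreated one, although the gap between the nearest arrays was small. LID against PD gave -0.33 (SE 0.14, limma p = 0.0365, adjusted p = 0.536, exact permutation p = 0.1), a call lost when LID replicate 1 or 3 or PD replicate 1 or 2 was left out, with p up to 0.108.

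Grik1, another kainate receptor subunit, read 4.81, 4.77 and 5.30 in LID + PD98059, 5.23, 4.95 and 4.81 in LID + Vehicle, 5.21, 5.36 and 5.33 in LID, 5.79, 5.52 and 5.59 in PD, and 5.82, 6.03 and 6.09 in Normal. Only 2 arrays, both Normal, were above the dim level, so the differences in Grik1 were read at signals like those of genes the tissue does not express. Groups stepped down without overlap in PD against Normal (-0.35, SE 0.15, limma p = 0.0393) and in LID against PD (-0.34, SE 0.15, limma p = 0.0451), with p = 0.1 in the exact permutation test of both. The 2 comparisons share the PD arrays, and neither passed after adjustment. The LID against PD call was lost in 5 of the 6 fits that left out 1 array (limma p up to 0.151, with an exact permutation p of 0.1 over all 6 arrays), all but the one without PD replicate 2, and also after quantile normalization, with the trended robust prior and with the replicate block. The PD against Normal call was lost without PD replicate 2 or 3 or Normal replicate 2 or 3 (limma p up to 0.117, with an exact permutation p of 0.1 over all 6 arrays) and with the block. In PD against Normal this was the 1 gene of 30 past the unadjusted threshold, where 1.95% of transcripts were called lower and 2.36% higher; 0 genes were past it without PD replicate 2, PD replicate 3 or Normal replicate 2, and 2 genes without Normal replicate 1. It was the only gene of the set to pass the limma F test over the 5 groups (F = 16.4, adjusted p = 0.0442). In that test 8 of 30 reached an unadjusted p under 0.05 (Gria3, Gria4, Grik1, Grik2, Grik3, Dlg3, Shank1 and Shank2). Of transcripts 0.191% passed and 10.1% reached that unadjusted p, and of genes above the dim level 0.494% and 14.4%. The F call held only without LID + PD98059 replicate 3 or LID + Vehicle replicate 1, and adjusted p went up to 0.161 without another array.

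**Figure D2:**
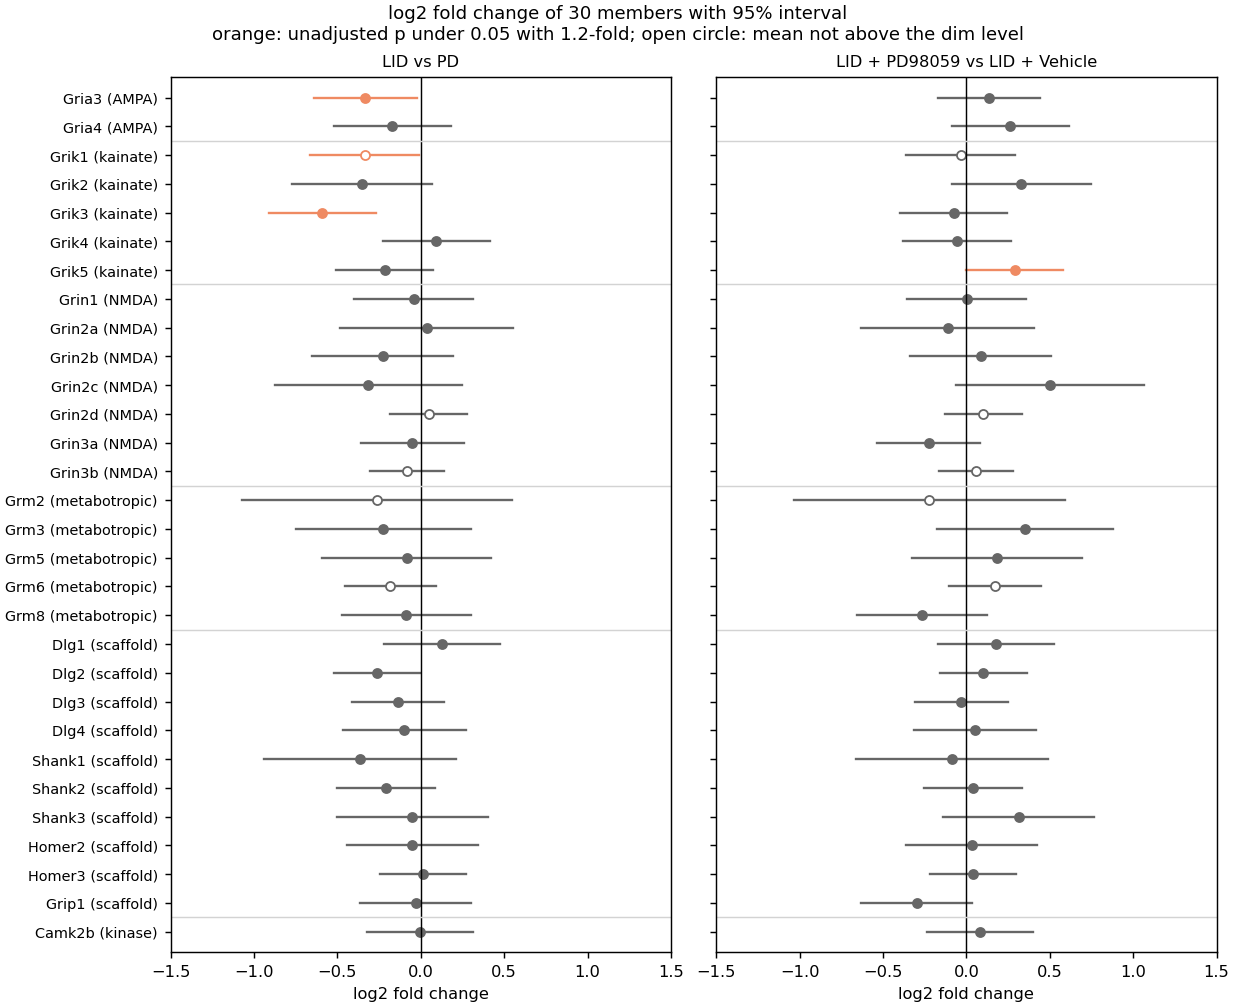
Log2 fold change (x axis) of each of the 30 genes (y axis, by family) with its 95% interval from limma, for LID against PD (left) and LID + PD98059 against LID + Vehicle (right). On the left 25 of 30 points lie below 0, Grik3 lowest at -0.59, and on the right every interval but that of Grik5, at 0.29, includes 0.

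Joining the L-DOPA groups (LID + PD98059, LID + Vehicle and LID, equally weighted) against PD gave more calls at the unadjusted threshold. No gene of the set passed after adjustment, and 6 transcripts did over the array, 3 of them lower (0.00818%). Past the unadjusted threshold, 8 of 30 genes were lower and 0 higher, against 5.23% of transcripts and 6.01% of genes above the dim level called lower and 3.83% of transcripts called higher. They were Gria3 (-0.38), Gria4 (-0.29), Grik1 (-0.55), Grik2 (-0.42), Grik3 (-0.61), Dlg2 (-0.27), Shank1 (-0.48) and Shank2 (-0.27). For Grik3 the SE was 0.12, the limma p was 0.000248 with an adjusted p of 0.108, and the exact permutation p was 0.00455, the smallest possible for 9 against 3. The sides did not overlap for 5 genes (Gria3, Grik1, Grik2, Grik3 and Dlg2). Of transcripts 2.05% were non-overlapping and lower, and of genes above the dim level 3.95%. The median over the set was -0.22, against -0.02 over all transcripts. Over the 12 fits that left out 1 array, Gria3, Grik1 and Grik3 kept this call in each, while it was lost in 9 for Shank1, 7 for Gria4, 5 for Dlg2, 5 for Shank2 and 1 for Grik2 (without PD replicate 2). Leaving out LID + PD98059 replicate 2, PD replicate 1 or PD replicate 2 left 4 genes past this threshold, and leaving out LID + Vehicle replicate 1 or LID replicate 3 left 5.

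The same L-DOPA groups were then set against the untreated groups, PD and Normal, a comparison added after values had been seen. It shares its L-DOPA arrays and the PD arrays with the one above, and lesion and sham stand together on the untreated side. After adjustment 3 of 30 genes passed, Gria3, Grik1 and Grik3, all lower with L-DOPA, where 1.19% of transcripts and 2.66% of genes above the dim level were called lower. Grik3 fell by 0.55 (log2, SE 0.10, limma adjusted p = 0.0132), Grik1 fell by 0.72 (SE 0.10, limma adjusted p = 0.00362) and Gria3 fell by 0.44 (SE 0.09, limma adjusted p = 0.0331). These sizes take in part of the PD against Normal difference, which was 0.10 for Grik3, -0.35 for Grik1 and -0.11 for Gria3. Against PD alone the changes were -0.61, -0.55 and -0.38 in the same order, and none passed after adjustment. None of the 3 overlapped between sides, as for 0.763% of transcripts and 1.89% of genes above the dim level in this direction. The exact permutation p was 2e-04 for Grik1 and Grik3, the smallest that 9 against 6 can give, and 4e-04 for Gria3. Where sides do not overlap this p is at or near its smallest, so it adds nothing to the separation. The test also treats the rats of each side as exchangeable, although each side joins several groups. Grik1 and Grik3 passed without each of the 15 arrays in turn, with adjusted p up to 0.0170 and 0.0450. Without LID + PD98059 replicate 3, 5 genes of the set passed. The Gria3 call was lost in 10 of the 15 (adjusted p up to 0.0925), and held without LID + PD98059 replicate 3, LID + Vehicle replicate 1 or 3, LID replicate 2 or Normal replicate 2. Without LID + Vehicle replicate 1, the array that stood apart, the log2 fold changes were -0.54 for Grik3, -0.76 for Grik1 and -0.38 for Gria3.

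**Figure D3:**
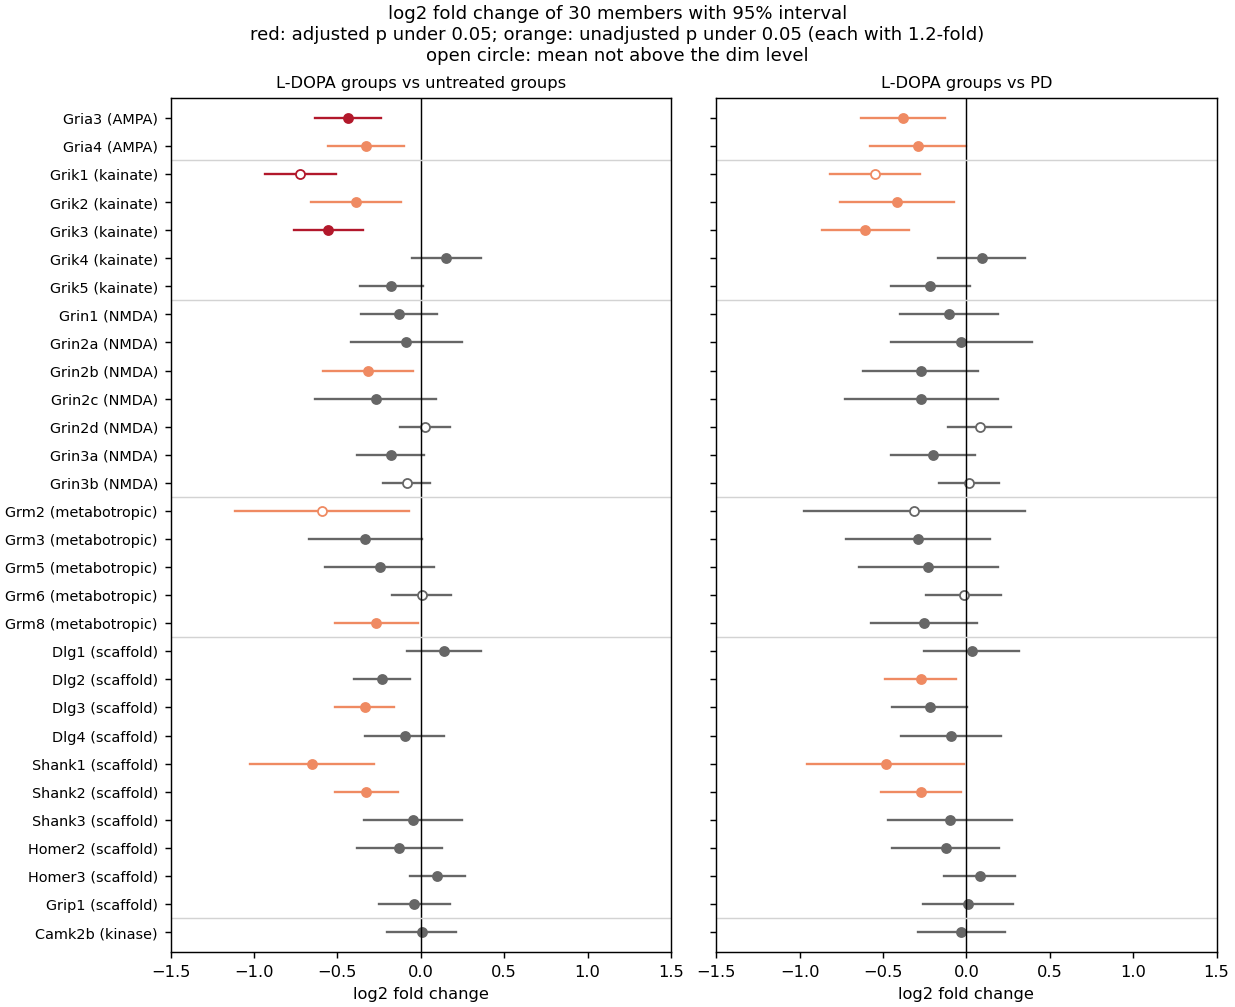
Log2 fold change (x axis) of the 30 genes (y axis, by family) with its 95% interval from limma, for the 9 L-DOPA-treated arrays against the 6 untreated arrays (left) and against the 3 PD arrays (right). Red points, Gria3, Grik1 and Grik3 on the left, passed after adjustment, orange points passed only the unadjusted threshold, and open circles mark genes whose mean was not above the dim level.

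Past the unadjusted threshold in that comparison were 11 of 30 genes, all lower, against 6.07% of transcripts and 7.97% of genes above the dim level lower and 5.28% of transcripts higher. The median over the set was -0.21, against -0.02 for all transcripts. Beside the 3 genes above they included Gria4, Grik2, Grin2b, Grm2, Grm8, Dlg3, Shank1 and Shank2, described here by family. With each of the 15 arrays left out in turn, the unadjusted call was lost in 10 fits for Grm8, 6 for Grin2b and 5 for Grm2, and in 0 for Gria4, Grik2, Dlg3, Shank1 and Shank2.

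Of the AMPA subunits, Gria4 read 9.04, 8.76 and 9.07 in LID + PD98059, 8.40, 8.70 and 8.98 in LID + Vehicle, 9.03, 9.21 and 8.78 in LID, 9.19, 9.34 and 9.0 in PD, and 9.40, 9.12 and 9.24 in Normal. The sides overlapped, with a log2 fold change of -0.33 for L-DOPA-treated against untreated (SE 0.10, limma adjusted p = 0.127). Of the kainate subunits, Grik2 read 8.74, 8.69 and 8.81 in LID + PD98059, 7.93, 8.51 and 8.81 in LID + Vehicle, 8.60, 8.85 and 8.58 in LID, 8.96, 9.23 and 8.91 in PD, and 9.26, 8.78 and 8.90 in Normal. Its lowest array was LID + Vehicle replicate 1, and 1 Normal array lay among the L-DOPA-treated ones (-0.39, SE 0.12, limma adjusted p = 0.130). Grik4 and Grik5, the high-affinity kainate subunits that need a partner from Grik1 to Grik3 to form a working channel, had log2 fold changes of 0.15 (95% interval -0.05 to 0.36) and -0.18 (-0.36 to 0.01) in the same comparison.

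Of the NMDA subunits, Grin1, which every such receptor contains, averaged 9.65 ± 0.20 in LID + PD98059, 9.65 ± 0.37 in LID + Vehicle, 9.74 ± 0.11 in LID, 9.78 ± 0.07 in PD and 9.84 ± 0.17 in Normal (SD, n = 3 each). All groups overlapped, and L-DOPA-treated against untreated gave -0.13 (95% interval -0.36 to 0.10). Grin2b, a glutamate-binding subunit abundant in striatum, read 10.20, 9.84 and 9.94 in LID + PD98059, 9.44, 10.05 and 10.24 in LID + Vehicle, 9.96, 10.31 and 9.79 in LID, 10.32, 10.32 and 10.10 in PD, and 10.44, 10.15 and 10.42 in Normal. It was the 1 NMDA subunit of 7 past the unadjusted threshold (-0.32, SE 0.13, limma adjusted p = 0.214), and its sides overlapped. Grin2a, the other main glutamate-binding subunit of the adult forebrain, gave -0.09 (95% interval -0.42 to 0.25). Grin2c gave -0.27 (-0.63 to 0.09) and Grin3a -0.18 (-0.38 to 0.02). Grin2d and Grin3b lay below the dim level and gave 0.02 and -0.08.

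Among the metabotropic receptors, Grm5, the receptor of projection neurons that couples to calcium release, gave -0.25 (95% interval -0.57 to 0.08), and Grm3, found on glia and nerve endings, gave -0.33 (-0.67 to 0.01). Grm8, a receptor of nerve endings, read 7.02, 6.84 and 7.45 in LID + PD98059, 7.60, 7.15 and 7.35 in LID + Vehicle, 7.46, 7.54 and 7.45 in LID, 7.64, 7.45 and 7.61 in PD, and 7.24, 7.86 and 7.69 in Normal (-0.27, SE 0.12, limma adjusted p = 0.254). Its sides overlapped widely. Grm2, also a receptor of nerve endings, read 4.04, 4.18 and 4.69 in LID + PD98059, 5.05, 4.14 and 4.39 in LID + Vehicle, 4.52, 4.51 and 4.43 in LID, 4.77, 4.41 and 5.06 in PD, and 4.45, 5.19 and 6.29 in Normal. Its 1 array above the dim level was Normal replicate 3, and its log2 fold change of -0.59 (SE 0.24, limma adjusted p = 0.228) was read below that level. Grm6, best known from retina, was also dim and gave 0.01.

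The scaffolds ranged from -0.65 to 0.14 in L-DOPA-treated against untreated arrays. Dlg4 (PSD-95), the main anchor of the postsynaptic density, averaged 10.17 ± 0.24 in LID + PD98059, 10.12 ± 0.35 in LID + Vehicle, 10.13 ± 0.21 in LID, 10.23 ± 0.05 in PD and 10.25 ± 0.10 in Normal (SD, n = 3 each), and L-DOPA-treated against untreated gave -0.10 (95% interval -0.33 to 0.14). Dlg3 (SAP102), which binds NMDA receptors, read 8.33, 8.10 and 8.26 in LID + PD98059, 8.0, 8.33 and 8.45 in LID + Vehicle, 8.39, 8.54 and 8.18 in LID, 8.51, 8.58 and 8.42 in PD, and 8.69, 8.69 and 8.84 in Normal. Normal arrays were all above the rest, and L-DOPA-treated against untreated gave -0.34 (SE 0.08, limma adjusted p = 0.0588). Dlg2 (PSD-93) read 11.11, 10.90 and 11.15 in LID + PD98059, 10.69, 11.07 and 11.10 in LID + Vehicle, 11.04, 11.12 and 10.90 in LID, 11.30, 11.33 and 11.22 in PD, and 11.28, 11.11 and 11.21 in Normal. All L-DOPA-treated arrays were below all PD arrays, with an exact permutation p of 0.00909 for 9 against 3, while 1 Normal array lay within their range. Dlg1 (SAP97) was higher in every PD array than in every Normal array, with 10.20 ± 0.05 in PD and 9.99 ± 0.12 in Normal (0.21, limma p = 0.206, exact permutation p = 0.1).

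Shank1, a large scaffold that links receptors to the actin skeleton, read 8.74, 8.75 and 9.49 in LID + PD98059, 9.52, 8.79 and 8.91 in LID + Vehicle, 9.29, 9.05 and 9.30 in LID, 10.02, 9.11 and 9.61 in PD, and 9.61, 10.00 and 10.12 in Normal. PD replicate 2 lay among the L-DOPA-treated arrays, and L-DOPA-treated against untreated gave -0.65 (SE 0.17, limma adjusted p = 0.0732). Shank2 read 7.24, 7.28 and 7.78 in LID + PD98059, 7.24, 7.51 and 7.44 in LID + Vehicle, 7.52, 7.48 and 7.51 in LID, 7.86, 7.67 and 7.61 in PD, and 7.78, 7.79 and 7.92 in Normal. Here LID + PD98059 replicate 3 alone reached the untreated range (-0.33, SE 0.09, limma adjusted p = 0.0768). Shank3, the Shank protein most studied in striatum, gave -0.05 (95% interval -0.34 to 0.25). The difference between the Shank genes was not tested. Homer2, Homer3 and Grip1, which tether metabotropic and AMPA receptors, gave -0.13, 0.10 and -0.04, and Camk2b, a subunit of the kinase that acts on them, gave 0.01 (95% interval -0.20 to 0.21).

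The question of the MEK inhibitor was read from LID + PD98059 against LID + Vehicle. No gene of the set passed, nor did any transcript (0%). At the unadjusted threshold 1 of 30 genes was higher, against 2.33% of transcripts, and 0 were lower, against 2.12%. That gene, Grik5, read 8.73, 8.46 and 8.66 in LID + PD98059 and 8.05, 8.40 and 8.52 in LID + Vehicle, and the groups overlapped (0.29, SE 0.13, limma p = 0.0496, adjusted p = 0.966, exact permutation p = 0.2). For none of the 30 did the groups separate, as they did for 4.98% of transcripts higher and 4.18% lower. Of genes above the dim level, 3.31% were separated and higher and 5.76% separated and lower. Grik3 gave -0.08 (95% interval -0.40 to 0.24), Grik1 -0.04 (-0.36 to 0.29) and Gria3 0.14 (-0.17 to 0.44), so with 3 rats a group these data allow differences of that width either way. The count depended on single arrays: without LID + Vehicle replicate 3 it was 9, without LID + PD98059 replicate 2 or 3 it was 2, and without LID + PD98059 replicate 1, LID + Vehicle replicate 1 or LID + Vehicle replicate 2 it was 0. LID + Vehicle against LID gave 0 genes at either threshold, against 1.85% of transcripts higher and 1.82% lower at the unadjusted one, with a median of -0.11. Without LID + Vehicle replicate 3 the unadjusted count was 4, and without LID + Vehicle replicate 1 or 2 or LID replicate 3 it was 1. All 6 listed striatal interneuron markers (Chat, Slc18a3, Pvalb, Sst, Npy and Th) were measured, 5 of them above the dim level (Slc18a3 was not). All 6 were below 0 in LID + PD98059 against LID + Vehicle (median -0.58), 3 past the unadjusted threshold and 0 after adjustment. All 6 were above 0 in LID + Vehicle against LID (median 0.33), 0 of them past the unadjusted threshold. In L-DOPA-treated against untreated arrays 3 were above and 3 below 0, and 1 was higher after adjustment. The paper reports Th as raised by L-DOPA and lowered by PD98059. Array means of these 6 markers ranged from 6.44 to 7.01 in LID + PD98059 and from 7.18 to 7.51 in LID + Vehicle. They ranged from 6.95 to 7.12 in LID, 6.87 to 6.98 in PD and 6.88 to 7.18 in Normal. The part of these markers in the values of the set was not tested.

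The effect of the lesion was read from PD against Normal. Beside Grik1, the groups separated for Dlg1 (higher in PD) and for Grin3b, Grm3 and Dlg3 (lower in PD). Of transcripts 5.92% were separated and higher and 4.58% separated and lower, and of genes above the dim level 7.99% and 5.89%. No gene or transcript passed after adjustment, and the median over the set was -0.03. Grik3 gave 0.10 (95% interval -0.22 to 0.42) and Gria3 -0.11 (-0.41 to 0.20). Oligodendrocyte markers were above 0 for 7 of 7 measured in PD against Normal (median 0.35, 3 past the unadjusted threshold), with array means of 10.36 to 10.50 in PD and 9.86 to 10.24 in Normal, and endothelial markers for 4 of 4 (median 0.29, 2 past it), with 8.18 to 8.42 in PD and 7.86 to 8.14 in Normal. Their part was not tested either.

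Auxiliary subunits, receptor partners and glutamate handling genes, a list of 53 with 46 measured, were read alongside. In L-DOPA-treated against untreated arrays 5 passed after adjustment, all lower, and at the unadjusted threshold 14 were lower and 1 was higher, with a median of -0.16, against 1.19% of transcripts lower after adjustment and 6.07% lower and 5.28% higher at the unadjusted threshold. Cnih3, which escorts AMPA receptors to the surface, averaged 5.59 in L-DOPA-treated and 6.75 in untreated arrays, its L-DOPA-treated mean below the dim level (-1.16, SE 0.18, limma adjusted p = 0.00657). Cacng3, a TARP of the AMPA receptor complex, averaged 8.83 in L-DOPA-treated and 9.66 in untreated arrays (-0.82, limma adjusted p = 0.0310). Dlgap1, which joins Dlg to Shank proteins, fell by 0.69 (limma adjusted p = 0.0320), and Olfm1, a secreted protein that binds AMPA receptor complexes, fell by 1.0 (limma adjusted p = 0.0355). Frmpd4, a Homer- and Dlg4-binding scaffold named here after its value was seen, fell by 0.59 (limma adjusted p = 0.0399). The 1 gene that was higher, the Src family kinase Fyn, gave 0.28 (limma adjusted p = 0.0717). In LID against PD, 0 of the 46 passed and 4 were lower at the unadjusted threshold (Cnih3 -0.83, Frmpd4 -0.49, Kalrn -0.29 and Cacng3 -0.58), against 4.69% of transcripts. For L-DOPA groups against PD, 0 passed, and 13 were lower and 1 was higher at the unadjusted threshold, against 5.23% and 3.83% of transcripts. In PD against Normal 1 was lower, Cnih3 (-0.83, exact permutation p = 0.1), against 1.95% of transcripts. In LID + PD98059 against LID + Vehicle 1 was lower, the neuronal glutamate transporter Slc1a1 (-0.35, exact permutation p = 0.1, groups separate), against 2.12%.

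Markers of cortical excitatory neurons were read beside these results. Of 8 listed, 6 were measured and 5 lay above the dim level (Neurod6 did not). Their mean signal per array ranged from 6.19 to 7.35 in LID + PD98059, 6.43 to 7.19 in LID + Vehicle, 6.43 to 7.48 in LID, 7.31 to 7.94 in PD and 8.01 to 8.47 in Normal. All 6 were lower in L-DOPA-treated than in untreated arrays, 3 after adjustment, with a median of -1.31. All 6 were also lower in PD than in Normal, with a median of -0.73. Slc17a7, the vesicular glutamate transporter of cortical neurons, is on this list and on the glutamate handling list. It averaged 8.25 in L-DOPA-treated and 10.02 in untreated arrays, lower at the unadjusted threshold but not after adjustment. In the PD arrays, Shank1 read 10.02, 9.11 and 9.61 where the cortical marker means were 7.94, 7.31 and 7.64. The part of the cortical markers in the values of the set (Gria3, Grik1, Grik3, Shank1 and Grm2 among them) was not tested. Nor was their part in the values of the partner genes, Cnih3 among them. Microglial markers ran the other way, with log2 fold changes above 0 for all 7 in L-DOPA-treated against untreated arrays (median 0.81), 5 at the unadjusted threshold and 0 after adjustment, and per-array means of 8.78 to 9.65 in LID + PD98059, 9.04 to 9.69 in LID + Vehicle, 8.0 to 9.79 in LID, 8.06 to 8.71 in PD and 7.78 to 9.15 in Normal. Of the 4 thalamic markers, all measured and 3 above the dim level (Slc17a6 was not), 3 were above 0 in the same comparison (median 0.30), 2 past the unadjusted threshold and 1, the kinase Prkcd, after adjustment; their array means ranged from 6.57 to 7.25 with L-DOPA and from 6.30 to 6.59 without. The 10 striatal projection neuron markers had a median of 0.02, with 6 above and 4 below 0, and their array means, 9.70 to 10.64 with L-DOPA and 9.82 to 10.57 without, overlapped. In the other comparisons they were not level: 8 of the 10 were below 0 in LID against PD (median -0.16), 7 in L-DOPA groups against PD (median -0.12), and 9 were above 0 in PD against Normal (median 0.25). Of 7 astrocyte markers 4 were above 0 in L-DOPA-treated against untreated arrays (median 0.08), and of 4 endothelial markers 3 (median 0.14). In each of these lists 1 was higher after adjustment. Astrocyte array means ran from 10.62 to 10.83 in LID + PD98059, 10.26 to 10.87 in LID + Vehicle and 10.64 to 10.70 in LID. They ran from 10.54 to 10.57 in PD and 10.23 to 10.52 in Normal. The part of all these markers in the results above was not tested.

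**Figure D4:**
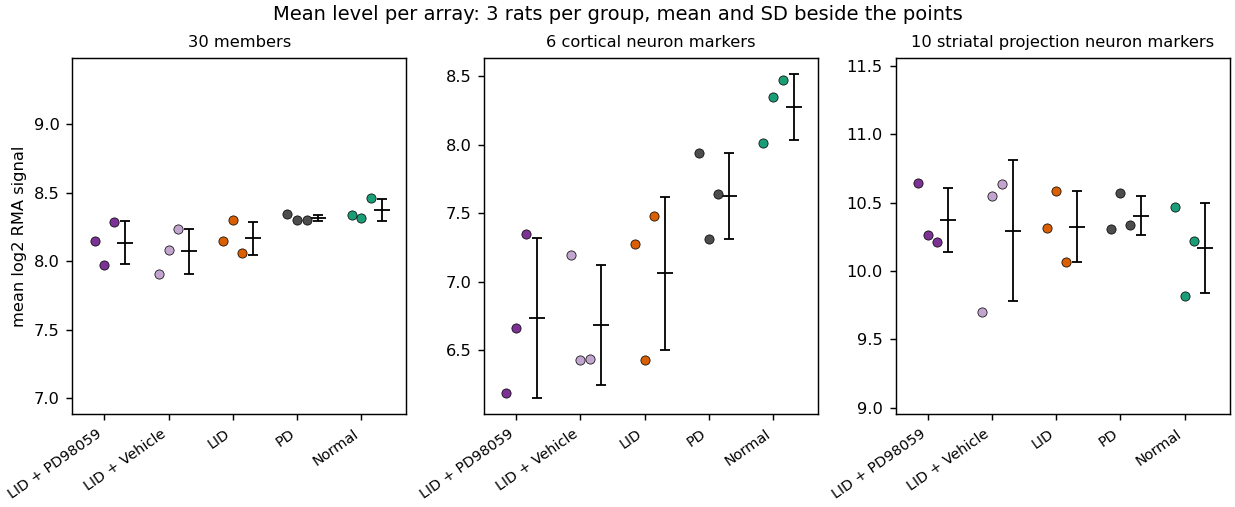
Mean log2 RMA signal per array (y axis) in the 5 groups (x axis) for the 30 genes of the set, 6 cortical excitatory neuron markers and 10 striatal projection neuron markers, each point 1 rat and each bar the group mean with its SD (n = 3). Cortical marker means run between 6.19 and 7.48 in L-DOPA-treated arrays and between 7.31 and 8.47 in untreated arrays, while the striatal marker means overlap.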

How the data were processed

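Striatal RNA of 15 rats (5 groups of 3, 1 array each) was hybridised to whole-transcript arrays of 1 colour. The deposited log2 values are the authors' RMA signals from Affymetrix Expression Console; their methods name the software's exon-level setting and a median over the probes of each transcript, and the version is not given in the sources used here. No further scaling was applied. Genes were named from the platform annotation: 18511 transcripts had 1 symbol, 575 several and 17599 none. Group means were fitted over all 15 arrays (10 residual degrees of freedom) with limma 3.58.1 in R 4.3.3, without a trend, and p-values were adjusted over all 36685 transcripts by Benjamini-Hochberg. The thresholds, adjusted p under 0.05 and 1.2-fold, follow the study's methods. Genes past the unadjusted threshold are given per array, together with at most 4 partner genes per comparison by smallest p. Frmpd4 and Fyn were named beyond these 4 in L-DOPA-treated against untreated arrays. A planned ranking of levels within families was dropped, since levels of different probes are not comparable. Permutation tests were exact and two-sided. The genes and lists were chosen with earlier results of these data known. The fit was tested on simulated data. Alternatives were quantile normalization, median centring, a trended robust prior, removal of dim transcripts, array weights, a replicate block, only the groups compared, and leaving out each array. Promoters were read from RefSeq (GRCr8), with 22 of 36 genes listed. Precision is limited by the number of arrays. Figures were drawn with matplotlib 3.10.9.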

Additional observations from a re-analysis of the deposited data

Results flagged for a closer look

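Values that stood far from the rest of their side (Dixon's test at 95%, the 9 L-DOPA-treated or the 6 untreated arrays as 1 side) were found 10 times in 60 tests, where chance gives about 1 in 20. LID + Vehicle replicate 1 accounted for 5 of them. It was the lowest of the 9 L-DOPA-treated arrays for Gria3 at 9.17 (next 9.54), Grik2 at 7.93 (next 8.51), Grm3 at 8.82 (next 9.57) and Grm5 at 8.70 (next 9.43), and the highest for Grip1 at 8.36 (next 7.98). Homer3 was highest in LID + PD98059 replicate 3 at 7.16 (next 6.89). Among the untreated arrays, Grik4 was lowest in Normal replicate 1 at 7.17 (next 7.55) and Grik5 highest in PD replicate 3 at 8.82 (next 8.65). Normal replicate 2 was the lowest untreated array for Shank3 at 9.03 (next 9.39) and for Grm6 at 5.44 (next 5.54), the second of these below the dim level.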

How the results depend on the processing

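No gene past the unadjusted threshold in a comparison changed sign there under any alternative. For LID against PD, the number of transcripts that passed was 1 with median centring, with dim transcripts removed, with the replicate block and with only the groups compared; 5 genes of the set were past the unadjusted threshold with array weights. For LID + PD98059 against LID + Vehicle that count was 0 with median centring, array weights, the replicate block and only the groups compared; for PD against Normal it was 0 with dim transcripts removed and with the block; for LID + Vehicle against LID it was 1 with array weights. L-DOPA groups against PD gave 16 transcripts with the trended robust prior, 57 with dim transcripts removed, 74 with array weights and 2 with the block. L-DOPA groups against untreated groups gave 1157 transcripts and 5 genes of the set (Gria3, Grik3, Dlg3, Shank1 and Shank2) with dim transcripts removed, and 1404 and 6 with array weights, which added Grik1; Dlg3 also passed after quantile normalization and with the trended prior. The F test gave 135 transcripts and 0 genes with dim transcripts removed, 159 transcripts with array weights, and 39 transcripts and 0 genes with the block. Leaving out 1 array at a time gave 1 to 2 transcripts and 1 to 4 genes past the unadjusted threshold in LID against PD, 0 to 1 and 0 to 9 in LID + PD98059 against LID + Vehicle, 0 to 1 and 0 to 2 in PD against Normal, 0 to 1 and 0 to 4 in LID + Vehicle against LID, and 1 to 26 and 4 to 9 in L-DOPA groups against PD. It gave 235 to 1031 transcripts and 2 to 5 passing genes in L-DOPA groups against untreated groups, and 3 to 79 transcripts, 0 to 1 passing genes and 4 to 10 genes at an unadjusted p under 0.05 in the F test. Median log2 fold changes of the set then ran from -0.19 to -0.05, -0.01 to 0.17, -0.07 to 6.4e-06, -0.18 to 0.03, -0.25 to -0.16 and -0.23 to -0.15 in the 6 comparisons, in the order given, so those of LID + PD98059 against LID + Vehicle, PD against Normal and LID + Vehicle against LID reached both sides of 0. Deviations of same-numbered arrays of different groups correlated between -0.777 and 0.582. They were not set against those of differently numbered arrays, so whether the replicate number pairs the rats was not settled. With the number as a block, Gria3 no longer passed in L-DOPA groups against untreated groups (limma adjusted p = 0.0517). With 3 rats a group and 5 genes of the set below the dim level, small differences were not detectable.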
